A study of Homo sapiens with 8 samples.

Results

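The regions described here are genes whose coding sequence is at most 450 nt, read by ribosome profiling in OVCAR3 cells, a human ovarian cancer line. They were chosen by 3 conditions: a coding length of 1 to 450 nt in the deposited files, at least 80 coding counts summed over the 8 libraries, and no symbol of a ribosomal protein, respiratory chain subunit, mitochondrially encoded gene or clustered histone (15 symbol prefixes). Of 20165 regions in the files, 18853 had a coding sequence and 2231 had one of 1 to 450 nt. Of those, 162 were left out by symbol and 1490 fell under the count minimum, which left 579 members. The count minimum used the level of each gene summed over all libraries, so the levels below are a description.

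Ribo-seq sequences the stretches of mRNA that ribosomes shield from RNase I. The study asked how mono-ADP-ribosylation (MARylation) of RACK1, a protein of the 40S ribosomal subunit, bears on translation. There were 4 groups of 2 libraries each. In RACK1-WT and RACK1-Mut, 1 µg/ml doxycycline for 48 h both knocked down endogenous RACK1 and turned on an HA-tagged RACK1, wild type in RACK1-WT and with all 3 MAR acceptor residues mutated in RACK1-Mut, so both groups carry the knockdown, the transgene and the drug. In siControl and siTARG1, OVCAR3 cells received 30 nM of a control siRNA or of an siRNA against OARD1, the gene of TARG1, an enzyme that removes mono-ADP-ribose, and were harvested after 48 h. The labels do not say whether the 2 libraries of a group came from separate cultures. The study's methods say in general terms that sequencing experiments used independent biological samples. The p-values measure the spread between these libraries. Footprints follow both the amount of an mRNA and how often it is translated, and the 2 cannot be told apart from these counts.

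A short coding sequence holds few ribosomes at a time, and starting on it takes up a larger part of each round of translation than it does on a long one. RACK1 is known in other systems to favour the translation of short mRNAs, many of which code for parts of the translation and respiratory machinery. The members here are the short coding sequences outside those families: small secreted inhibitors and chemokines, calcium-binding S100 proteins, histone variants, Sm and LSM proteins of the spliceosome, ubiquitin-like modifiers, small mitochondrial import proteins and others.

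The following coding sequences are shown because the strongest values turn on them. They were read from the GENCODE transcripts of the GRCh37 build, 5′ to 3′, with the start and stop codons in capitals. TMSB10 (chr2:85132780-85133795, plus strand) codes for thymosin beta-10, which binds actin monomers. S100A6 (chr1:153507075-153508720, minus strand) and S100A10 (chr1:151955391-151966335, minus strand) code for S100 proteins, and S100A10 is the partner of annexin A2. The coordinates are those of the genes.
TMSB10: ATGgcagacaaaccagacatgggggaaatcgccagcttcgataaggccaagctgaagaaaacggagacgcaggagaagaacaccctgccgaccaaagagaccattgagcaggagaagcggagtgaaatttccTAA
S100A6: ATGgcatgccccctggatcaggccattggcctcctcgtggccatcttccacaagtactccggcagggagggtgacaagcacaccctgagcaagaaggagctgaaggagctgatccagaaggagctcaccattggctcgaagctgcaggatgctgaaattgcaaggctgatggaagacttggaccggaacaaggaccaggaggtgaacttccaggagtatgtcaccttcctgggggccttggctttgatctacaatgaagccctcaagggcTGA
S100A10: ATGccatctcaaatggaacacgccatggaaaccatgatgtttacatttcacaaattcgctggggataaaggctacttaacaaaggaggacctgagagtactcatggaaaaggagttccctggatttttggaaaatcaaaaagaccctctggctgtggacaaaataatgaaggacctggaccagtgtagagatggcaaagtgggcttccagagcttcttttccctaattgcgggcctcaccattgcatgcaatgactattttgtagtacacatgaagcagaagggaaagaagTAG
The next 3 lines give the first 90 bases of CXCL1 (chr4:74735110-74737025), CXCL2 (chr4:74962757-74964913) and CXCL3 (chr4:74902306-74904524), neutrophil-attracting chemokines that were counted apart although they are close copies. Capitals mark the bases that differ from CXCL1.
CXCL1: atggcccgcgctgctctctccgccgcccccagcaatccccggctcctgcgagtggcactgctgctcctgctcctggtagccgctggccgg
CXCL2: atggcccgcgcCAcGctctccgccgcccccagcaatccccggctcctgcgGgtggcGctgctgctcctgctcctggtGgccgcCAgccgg
CXCL3: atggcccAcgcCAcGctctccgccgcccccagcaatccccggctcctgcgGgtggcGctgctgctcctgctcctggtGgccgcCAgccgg
Over the whole 324 nt, CXCL2 was identical to CXCL1 at 93.5% of positions and CXCL3 at 90.7%. Of their coding 28-base words, 22.9% in CXCL1, 47.5% in CXCL2 and 37.7% in CXCL3 also stood in a transcript of another region. A footprint there has no unique place. The last pair is MTRNR2L1 (chr17:22022437-22023991) and MTRNR2L6 (chr7:142374104-142375550), nuclear copies of the mitochondrial 16S ribosomal RNA gene, with a 75-nt coding sequence. Capitals mark the bases that differ from MTRNR2L1.
MTRNR2L1: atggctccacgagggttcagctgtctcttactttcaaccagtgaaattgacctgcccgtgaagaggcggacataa
MTRNR2L6: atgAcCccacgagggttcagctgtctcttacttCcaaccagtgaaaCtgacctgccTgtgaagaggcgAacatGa

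The 579 members had a median coding length of 348 nt, from 11 to 450 nt. Of these, 183 were at most 300 nt and 18 at most 150 nt. Not all are whole short genes. In the GENCODE annotation, 520 belonged to genes whose longest coding sequence was itself at most 450 nt, and these held 93.6% of the members' coding counts. Another 45 were the counted remainder of longer genes, such as 413 nt of CLDN7, whose longest coding sequence has 633 nt, and 58 nt of SERTAD3 (588 nt), and held 3.37%. Some of the 520 were themselves counted only in part, as were 41 nt of IFITM3 (longest 399 nt) and 11 nt of POP7 (420 nt). The other 14 had no annotated coding sequence. Of the 565 with an annotated coding sequence, 463 shared no coding 28-base word with a transcript of another region. Another 79 shared over 10%, among them 42 over 50%. At the count minimum, CALCA (80 counts), CXCL10 (81) and SMIM29 (82) were just inside, and NRN1, S100A8 and TEN1, each with 79, just outside. At the length limit, 9 members had exactly 450 nt, STMN1, CHCHD10 and OSTC with the most counts among them, and TMEM241 at 451 nt was just outside.

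Compared with the 10307 regions over 450 nt that met the other conditions, the members had shorter untranslated regions, with a median of 193 against 242 nt in the 5′ UTR and 765 against 1280 nt in the 3′ UTR. The coding sequence made up a median of 22.6% of the exon length in the members and 49.1% in the longer regions. Base composition and start context were close. The median GC content of the coding sequence was 52.4% and 51.7%. A purine stood 3 bases before the start codon in 89.2% of members and 86.7% of longer regions, and a G right after it in 53.3% and 54.4%.

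SLPI, the secretory leukocyte protease inhibitor, had the highest footprint density of all members, 7.61 CPM per nt as the mean of the 4 group means, where CPM scales the coding counts of each library to a common total. TMSB10 followed with 5.07, H3-3A, which codes for the replication-independent histone H3.3, with 4.57, and S100A6 with 3.95. WFDC2, which codes for the ovarian cancer marker HE4, had 2.27, B2M, the light chain of MHC class I, 2.17, and PTMA, an acidic nuclear protein, 2.02. SNRPD2, a core Sm protein, PFN1, which binds actin monomers, and the histone variant H2AZ1 had 2.00, 1.99 and 1.87. The median member had 0.0961, and the 10 members with the most counts held 24.1% of all member counts. B2M ranged from 1.83 in RACK1-Mut to 2.96 in siTARG1. S100A6 varied most of the 10, at 1.95 in siControl, 3.55 in siTARG1, 5.2 in RACK1-WT and 5.08 in RACK1-Mut.

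As a share of all coding footprints, the members took 4.63 and 4.85% in the siControl libraries, 4.66 and 4.74% in siTARG1, 4.60 and 4.73% in RACK1-WT and 4.74 and 4.72% in RACK1-Mut. The mean was 4.67% ± 0.0897 in RACK1-WT and 4.73% ± 0.0164 in RACK1-Mut, and 4.74% ± 0.154 in siControl and 4.70% ± 0.0566 in siTARG1 (SD, n = 2). In both comparisons the groups overlapped, and with 2 libraries against 2 no permutation test can pass 0.05. Coding counts per library ran from 3100947 to 6604190, of which 149135 to 303952 lay on members.

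The members carried more footprints outside the coding sequence than longer genes did. The 5′ UTR share (of 5′ UTR, coding and 3′ UTR counts) had a median of 2.81% over members and 1.56% over longer regions, and the 3′ UTR share 1.27% and 0.275%. These are descriptions without a test, and both shares depend on coding length by construction. Over summed counts the 5′ UTR held 23.6 to 29.7% of the members' footprints per library, but 89.0% of the members' 5′ UTR counts lay on 4 regions with a 75-nt coding sequence: MTRNR2L1, MTRNR2L6 and 2 transcripts without a symbol here, ENST00000600213 and ENST00000536684. The 4 were picked by this length together with a high 5′ UTR share, so a high share in them follows from the choice. Together these 4 regions had 537380 counts in the 5′ UTR and 2904 in the coding sequence. Over all members it was 29.7 and 26% in RACK1-WT and 25.3 and 24.2% in RACK1-Mut, without overlap, and 23.6 and 25.3% in siControl and 24 and 25.7% in siTARG1, with overlap. Without these 4, a choice made after seeing the data, the share was 3.12 to 4.26% per library. It was lower in siTARG1 (3.98 and 4.03%) than in siControl (4.26 and 4.24%), without overlap, and overlapped between RACK1-WT (3.12 and 3.97%) and RACK1-Mut (3.35 and 3.86%). In the coding sequence none of the 4 was called in either comparison. MTRNR2L1 had 51.0 and 79.3 normalized coding counts in RACK1-WT and 82.3 and 55.4 in RACK1-Mut. Over exon counts it was called lower in RACK1-Mut (-0.35 on the log2 scale, DESeq2, adjusted p = 0.00013). Whether the counts on MTRNR2L1 and MTRNR2L6 came from these genes or from the mitochondrial gene they copy was not tested.

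Single members stood out by where their footprints lay, and those named here were picked after their values were seen. CHTF8, a subunit of an alternative clamp loader, had 800 counts in its coding sequence and 2562 in its 3′ UTR, 75.9% of all. EIF1, which guards start codon selection, had 16.6% in its 3′ UTR. On the 5′ side, PRR15 had 49.4% and MORN2 72.5%. Among members with over 2000 coding counts, HMGA2, an AT-hook chromatin protein, had 28.8%, SERP1, a small protein of the endoplasmic reticulum, 22.7% and PTMA 15.3% of their footprints in the 5′ UTR.

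**Figure D1:**
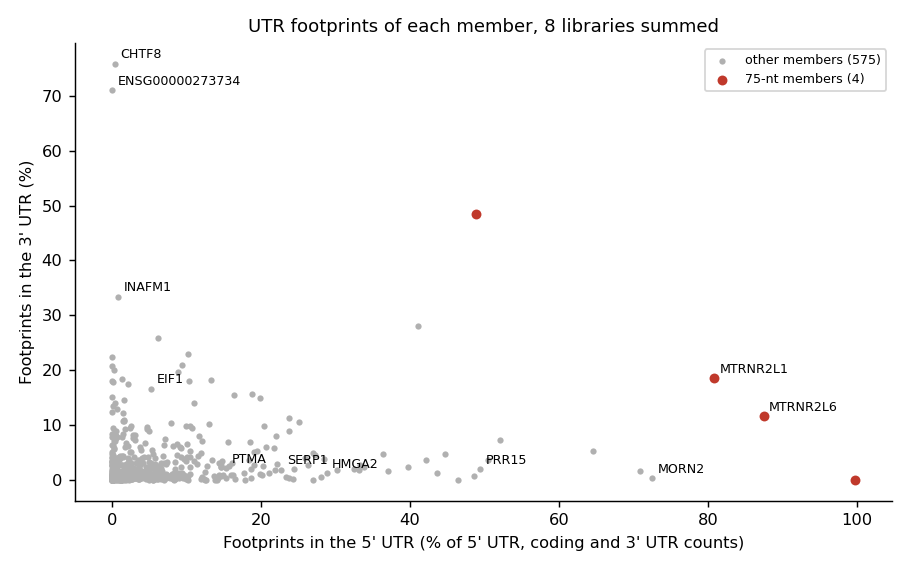
Each point is 1 of the 579 members; the axes give the percent of its 5′ UTR, coding and 3′ UTR counts, summed over 8 libraries, that lay in the 5′ UTR (horizontal) and in the 3′ UTR (vertical). Most members sit near the origin, and CHTF8 lies at 75.9% on the 3′ UTR axis. The 4 regions of 75 nt (red), picked partly by a high 5′ UTR share, lie at 48.8% or more on the 5′ UTR axis.

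Of the markers of the line, PAX8 ran from 369 to 587 and EPCAM from 539 to 755 CPM over the libraries. Others varied more, as KRT19 from 297 to 1150 and MSLN from 66.1 to 528 CPM. Among markers of other cells, PTPRC, a leukocyte marker, had at most 2 counts and COL1A1 58 to 231. CD24, a marker of the line, and PECAM1, a marker of other cells, had no region under their symbols. OARD1 had 121 and 69.1 normalized counts in siControl and 5.83 and 6.75 in siTARG1, 6.6% of the control level (DESeq2, adjusted p = 9.31e-11). RACK1 itself, whose reads come from the endogenous gene and the transgene together, had 23334 and 23594 in RACK1-WT and 17745 and 17274 in RACK1-Mut, 74.6% of RACK1-WT (adjusted p = 1.34e-08), and 84.0% of the control level in siTARG1 (adjusted p = 0.00297).

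Between RACK1-Mut and RACK1-WT, the short coding sequences hardly differed. Of 579 tested, 2 were called at an adjusted p under 0.05 by DESeq2, both lower in RACK1-Mut, against a background of 0.0799% of the 12520 regions tested, all of those lower too. These were IFI6 and IFI27, both interferon-induced proteins of mitochondrial and other membranes. IFI6 had 2066 and 2097 normalized counts in RACK1-WT and 1414 and 1560 in RACK1-Mut, which gives -0.49 ± 0.0865 on the log2 scale (SE from the fit, with an adjusted p of 5.93e-05). IFI27 had 537 and 565 in RACK1-WT and 367 and 385 in RACK1-Mut, -0.55 ± 0.131 (adjusted p = 0.0329). The groups did not overlap for either of these 2 called genes, nor for 37.6% of all regions tested. With any 1 of the 4 libraries left out, which leaves 1 library in a group, the log2 fold change stayed between -0.56 and -0.42 for IFI6 and between -0.59 and -0.51 for IFI27, and neither passed (0 members called in each case, DESeq2, with 2 to 8 members at an unadjusted p under 0.05).

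The other 6 members of the interferon-induced list did not pass: B2M had a log2 fold change of -0.12, LY6E -0.08, and CXCL10, with under 20 counts in every library, 0.40, and IFITM3, IFI27L1 and IFI27L2 lay between -0.12 and -0.06. Outside this list no member was called, and the other extremes stay descriptions. SAA1, an acute-phase protein that shares 56.4% of its 28-base words with another region, had 63.4 and 94.8 normalized counts in RACK1-WT and 38.2 and 42.2 in RACK1-Mut (log2 fold change -0.98, adjusted p = 1), and it passed by edgeR's quasi-likelihood test (adjusted p = 0.026). S100A9, a calcium-binding protein of myeloid cells and stressed epithelia, had 124 and 181 against 95.4 and 104 (-0.61). Among members with a mean of at least 50 normalized counts and groups that did not overlap, the highest were CDC42SE2, a binding partner of CDC42 (0.57), TRIQK (0.46), LYRM1 (0.45) and TIMM9, a chaperone of mitochondrial import (0.44), each with an adjusted p of 1.

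The median log2 fold change of the members was 0.016, beside -0.002 over all regions tested, and 90% of members lay between -0.32 and 0.37. The groups did not overlap for 225 members (38.9%), close to the 37.6% of all regions. At an unadjusted p under 0.05 there were 13 of 579 members and 205 of all 12520 regions. edgeR called 3 (background 0.24%), the 2 above and SAA1.

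**Figure D2:**
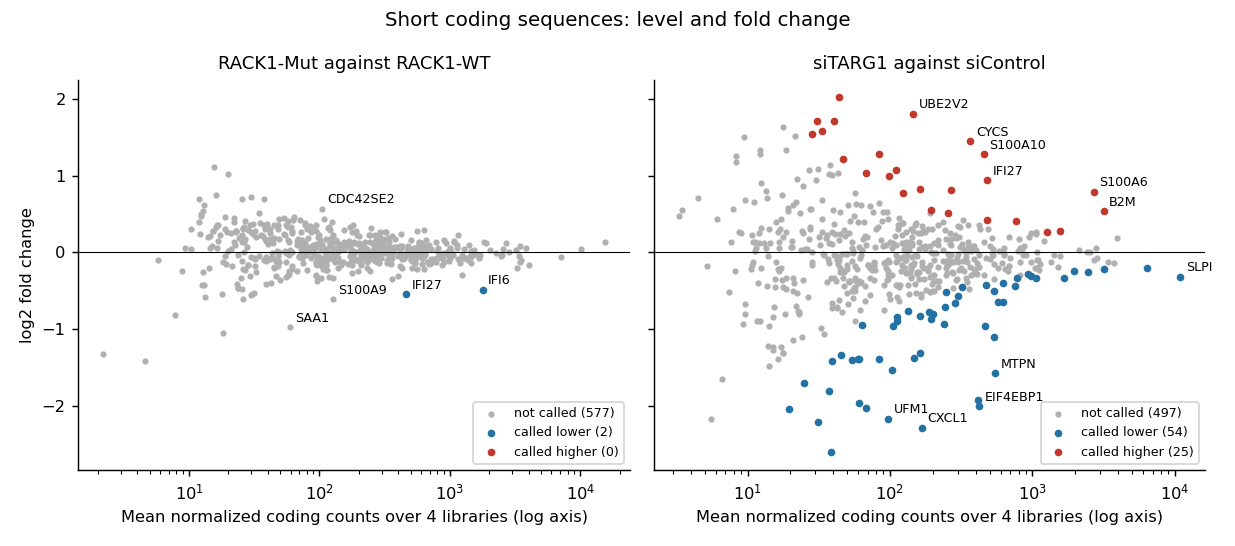
Each point is a member; the horizontal axis is the mean of the 2 group means of normalized coding counts (log axis) and the vertical axis the log2 fold change, for RACK1-Mut against RACK1-WT (left) and siTARG1 against siControl (right). Only IFI6 and IFI27 are called on the left, and 54 lower (blue) and 25 higher (red) members on the right.

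After knockdown of TARG1, 79 of 576 tested members were called, 25 higher and 54 lower (DESeq2, adjusted p under 0.05). That is 13.7% of the members, beside 16.4% of the 12056 regions tested, with 4.34% against 7.18% higher and 9.38% against 9.19% lower. The regions tested had a lower count minimum than the members. Among regions over 450 nt with the members' count minimum and symbol rule, 17.8% were called, 8.05% higher and 9.77% lower. As examples, CXCL1, UFM1, EIF4EBP1 and HMGN1 fell to between 20.3 and 26.4% of the control level, and UBE2V2, CYCS, S100A10 and S100A4 rose to between 239 and 348% of it. These are not the extremes: CXCL2 fell further (-2.61 on the log2 scale) and INIP rose further (2.02). CALCA, NUPR1 and LYPD1 were not tested, having at most 5 counts over these 4 libraries. Nearly all their counts came from the RACK1 experiment. A further 7 were tested but had no adjusted p. The groups did not overlap for 347 members (60.2%), beside 62.6% of all regions. The median log2 fold change was -0.089, beside 0.003 over all regions, and 57.6% of the members lay below 0, beside 49.6%. With 1 library left out, 23 to 31 members were called, and with the 2 siControl libraries taken in turn the median was -0.127 without the first and -0.041 without the second.

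The largest falls were in the chemokines. CXCL1 had 259 and 297 normalized counts in siControl and 59.9 and 52.9 in siTARG1, a log2 fold change of -2.29 ± 0.242 (adjusted p = 5.06e-19). CXCL2 went from 66.8 and 66.8 to 11.7 and 10.1 (-2.61) and CXCL3 from 62.4 and 39.3 to 9.99 and 12.4 (-2.21). In these 3 genes, all called lower, the control libraries were well above the siTARG1 libraries. The groups did not overlap in 62.6% of all regions tested either. The shared sequence printed above is a limit on telling one gene from another. Of the 20 members in the list of secreted and cell surface proteins, 5 fell and 2 rose, with a median of -0.12. SLPI, the most abundant member, had 11949 and 12284 in siControl and 9009 and 10391 in siTARG1 (-0.32, DESeq2, adjusted p = 0.000138). TSTD1 was at 59.4% of control. It is a thiosulfate sulfurtransferase and does not match the name of the list, which counts it among the 5 falls. PI3, or elafin, which like SLPI inhibits neutrophil proteases, rose from 35.2 and 54.8 to 86.6 and 96.7 (1.04, adjusted p = 0.0241). B2M rose from 2551 and 2611 to 3865 and 3622 (0.54 ± 0.0731, adjusted p = 1.38e-11). None of these moved past the test between RACK1-WT and RACK1-Mut.

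S100 genes held 4 of the 25 rises. S100A6 had 2018 and 1919 in siControl and 3392 and 3438 in siTARG1, a log2 fold change of 0.79 ± 0.0747 (adjusted p = 6.46e-24). S100A10 rose from 279 and 253 to 631 and 668 (1.28 ± 0.144), S100A4 from 30.8 and 67.9 to 107 and 129 (1.28 ± 0.361) and S100A14 from 84.4 and 97.7 to 168 and 143 (0.78 ± 0.259). For each of the 4, picked as called higher, the siTARG1 libraries lay above both controls. Over all regions tested, 7.18% were called higher and 62.6% had groups that did not overlap. S100A11 went the other way, from 2024 and 2196 to 1643 and 1914 (-0.25, adjusted p = 0.0467). The other 6 of the 11 members in this list did not pass, with S100A2 at 0.52, S100A16 at 0.16, S100A1 at 0.14, S100A13 at -0.23 and S100A9 at -0.40, and the protein kinase inhibitor PKIG at -0.12. The list's median was 0.16, and it was -0.09 with no call in the RACK1 comparison, where S100A4 had -0.35 and S100A10 -0.30. The 10 S100 genes among the members all lie on chromosome 1.

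In the interferon-induced list, 2 of 8 rose and none fell, and all 8 had a log2 fold change above 0, with a median of 0.44. Over all regions tested, 7.18% were called higher and 49.6% had a log2 fold change below 0. The list names 19 genes, of which 8 are members, and B2M is also counted in the secreted list. IFI27 rose from 351 and 309 to 643 and 630 (0.94 ± 0.139, adjusted p = 6.62e-10), and B2M is given above. IFI6, in contrast, had 4026 and 3302 in siControl and 4243 and 4108 in siTARG1 (0.19, adjusted p = 0.423). IFI27 was the one member called in both comparisons, in opposite directions. The difference between the 2 comparisons was not tested.

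**Figure D3:**
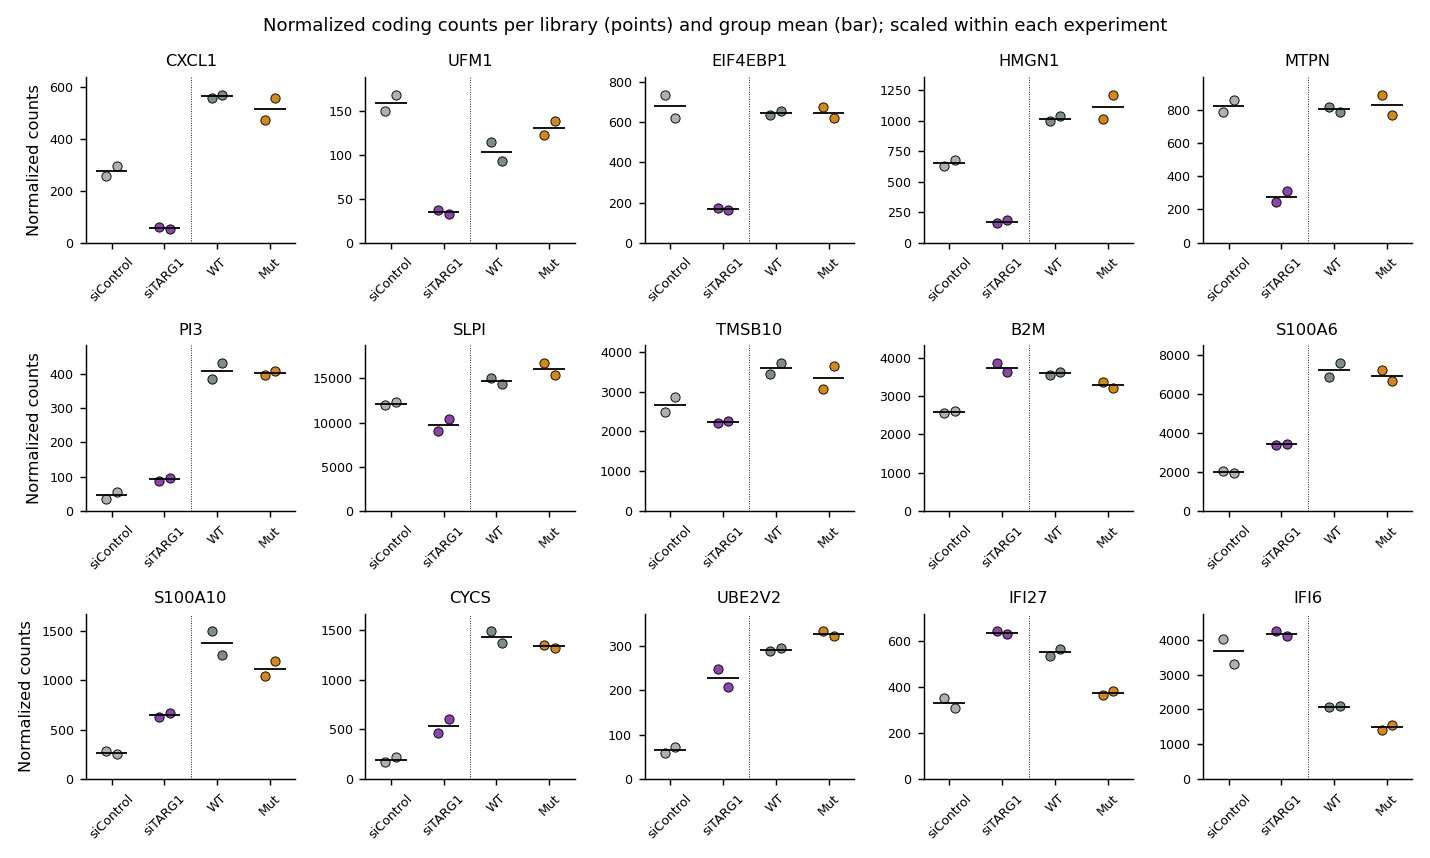
Normalized coding counts of 15 members in each of the 8 libraries (points) with the group mean (bar); the vertical axes start at 0, and counts are scaled within each experiment, so the left and right sides of a panel are not on a common scale. CXCL1, UFM1, EIF4EBP1, HMGN1 and MTPN drop in siTARG1, S100A6, S100A10, CYCS, UBE2V2 and B2M are higher there, and IFI27 and IFI6 are lower in RACK1-Mut.

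Among transcription and chromatin genes 8 of 38 tested members fell and none rose (background 9.19 and 7.18% of all regions tested), with a median of -0.14. HMGN1, a nucleosome-binding protein, had 632 and 675 in siControl and 159 and 186 in siTARG1 (-1.93 ± 0.157, adjusted p = 3.91e-32). The others were the kinetochore protein CENPW (-0.96), GTF2H5, the smallest TFIIH subunit (-0.95), the histone methyltransferase subunit DPY30 (-0.93), and the histones H2AZ2 (-0.65), H2AJ (-0.57), H2AX (-0.28) and H3-3A (-0.21). H2AX shared 17.8% of its 28-base words and H2AJ 6.89% with other regions. MED21, a Mediator subunit outside this list, fell from 138 and 168 to 45.8 and 60.7 (-1.53). In the RACK1 comparison none of the 39 members of the list passed.

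EIF4EBP1, which binds the cap-binding protein eIF4E and blocks cap-dependent initiation until mTORC1 phosphorylates it, fell from 737 and 622 to 171 and 165 (-2.01 ± 0.159, adjusted p = 5.97e-34, the smallest of any member). It was the one call among 17 members of the translation list, which had a median of -0.07, and it had 635 and 659 normalized counts in RACK1-WT and 675 and 621 in RACK1-Mut. In the ubiquitin list 3 of 30 fell and 1 rose (background 9.19 and 7.18% of all regions tested). UFM1, a ubiquitin-like modifier, fell from 150 and 168 to 37.5 and 32.6 (-2.17 ± 0.309), MAP1LC3C, an autophagy LC3 protein, from 36.9 and 39.3 to 9.99 and 13.5 (-1.71), and SUMO2 to 80.7% of control (-0.31). UBE2V2, the inactive partner of the ubiquitin-conjugating enzyme UBC13, rose from 58.0 and 72.7 to 248 and 207 (1.81 ± 0.255, adjusted p = 7.19e-11).

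The mitochondrial import and assembly list had 24 members, of which 3 fell and 1 rose. CYCS, cytochrome c, rose from 171 and 223 to 464 and 610 (1.45 ± 0.184, adjusted p = 2.95e-13). The falls were the chaperones TIMM8A (-0.90) and TIMM13 (-0.80) and the receptor TOMM20 (-0.50). Of 23 spliceosome and LSM proteins, SNRPE (-0.96), SNRPF (-0.45) and SNU13 (-0.33) fell and none rose. Of 21 secretory pathway members, 3 fell and none rose: TMEM167A (-0.87), the signal recognition particle subunit SRP9 (-0.65) and the oligosaccharyltransferase subunit TMEM258 (-0.33). Medians of these lists were -0.04, -0.10 and -0.14. The background for these counts was 9.19% of all regions tested called lower and 7.18% higher.

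Among the cytoskeletal members 2 of 20 rose, the dynein light chain DYNLL2 (0.81) and the prefoldin subunit PFDN4 (0.82), and 3 fell, SH3BGRL3 (-0.66), TMSB10 (-0.26) and PFN1 (-0.22). TMSB10 had 2480 and 2878 in siControl and 2202 and 2263 in siTARG1. Of 22 redox and metal members, MSRB1, a selenoprotein that repairs oxidized methionine (-0.85), and TXN, thioredoxin (-0.33), fell, and MT2A, a metallothionein that shares 38.4% of its 28-base words with its relatives, rose (0.28). In the list of G protein gamma and small signalling proteins, 4 of 32 rose and 3 fell. The retinoid carriers CRABP2 (0.26) and RBP7 (1.58) rose. Also called were ARPP19, an inhibitor of PP2A (0.51), the G protein subunit GNG5 (0.42), the cell cycle inhibitor CDKN2B (-0.52) and LAMTOR2, part of the Ragulator complex (-0.43). None of 17 V-ATPase and other transport members passed. The counts in these lists stand beside a background of 9.19% of all regions tested called lower and 7.18% higher.

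In 5 of the lists the member with the most counts did not pass the test in either comparison. After TARG1 knockdown SNRPD2 of the spliceosome list had a log2 fold change of -0.07 and CHCHD10, a mitochondrial intermembrane space protein, 0.20. SRP14, the partner of SRP9 in the signal recognition particle, had -0.20. TRMT112, an activator of several methyltransferases, was at 0.00 and SLIRP, which stabilizes mitochondrial mRNAs, at -0.30 (adjusted p = 0.0555). Between RACK1-Mut and RACK1-WT these 5 lay between -0.14 and 0.03, each with an adjusted p of 1.

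**Figure D4:**
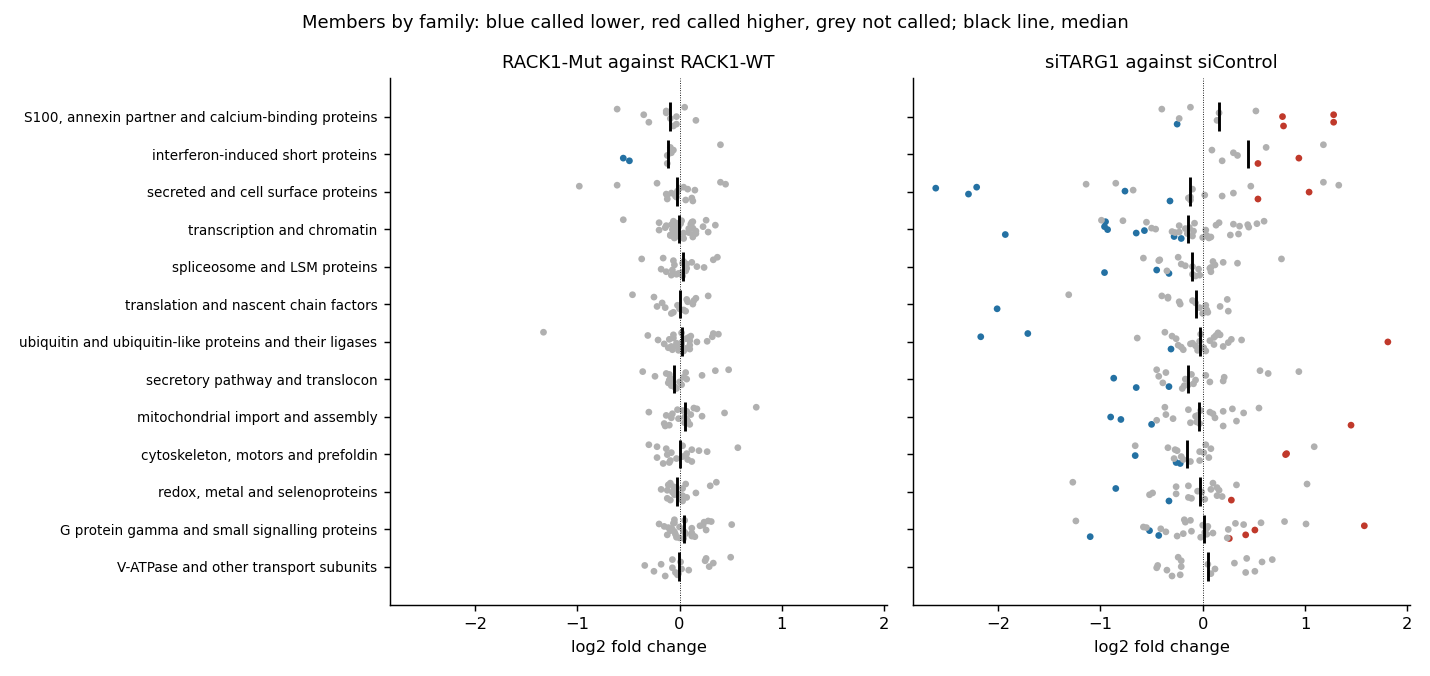
Each point is a member of 1 of the 13 lists, placed by its log2 fold change (horizontal) in RACK1-Mut against RACK1-WT (left) and siTARG1 against siControl (right); blue was called lower, red higher, grey not called, and the black line is the list's median. Calls on the left are limited to IFI6 and IFI27. On the right the transcription and chromatin list holds 8 blue points and no red one, and the S100 list 4 red and 1 blue. There, 9.19% of all regions tested were called lower and 7.18% higher.

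The 300 members in no list held 28 of the 79 calls, 9 higher and 19 lower (background 7.18 and 9.19% of all regions tested), with a median of -0.11. The largest falls with a mean of at least 50 normalized counts, beside MED21 above, were MTPN, myotrophin, which binds the actin capping protein and fell from 787 and 857 to 244 and 308 (-1.58 ± 0.144), ABRACL (-2.03), C17orf58 (-1.97) and CCDC167 (-1.41). VMA21, an assembly factor of the V-ATPase, had -1.38. CHTF8, whose footprints lay mostly in the 3′ UTR, had a log2 fold change of -1.39 over its coding sequence and -0.76 over exon counts. PRR15 had -1.34 over its coding sequence. On the other side stood RAMAC, the activator of the mRNA cap methyltransferase (1.07), GOLT1B, a Golgi transport protein (0.99), INIP, a subunit of a single-strand DNA binding complex (2.02) and RMI2 of the Bloom helicase complex (1.22), the last 2 with fewer than 80 normalized counts in every library. VMA21, PRR15, INIP and RMI2 were named after their values were seen.

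The shortest members and the small integral membrane proteins were looked at apart, as groups picked by length or symbol after the values were seen. Of the 18 members up to 150 nt, TMSB10 was the one call. STMP1, a short mitochondrial membrane protein of 144 nt, had 248 and 240 normalized counts in siControl and 196 and 178 in siTARG1 (-0.38, adjusted p = 0.181). It had 250 and 227 in RACK1-WT and 210 and 239 in RACK1-Mut, where the groups overlapped. Most of the others of this length were counted remainders or held shared sequence, as the 58 nt of SERTAD3 (89.7% of 28-base words shared) and the 41 nt of IFITM3 (89.6%). The 11 SMIM genes, small proteins with a membrane span, held no call in either comparison, at log2 fold changes from -0.73 to 0.58 after TARG1 knockdown and from -0.34 to 0.50 in RACK1-Mut. The deepest of them, SMIM14, had 102 and 98.9 in siControl, 104 and 129 in siTARG1, 220 and 232 in RACK1-WT and 228 and 237 in RACK1-Mut. None of the 11 members without a symbol was called either. The most abundant of these, ENST00000481445, had 1102 and 1178 in siControl and 1247 and 1288 in siTARG1 (0.15).

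Members were set beside longer genes by class of coding length, since the question of short mRNAs turns on it. Between RACK1-Mut and RACK1-WT the class medians lay between -0.011 and 0.022, from the members up to 300 nt to genes over 6000 nt, and in every class but that of 450 to 900 nt the 4 single pairs of libraries lay on both sides of 0. After TARG1 knockdown the median was -0.039 up to 300 nt, -0.095 from 300 to 450 nt, -0.050 from 450 to 900 nt, -0.011 from 900 to 1500 nt, 0.040 from 1500 to 3000 nt, 0.095 from 3000 to 6000 nt and 0.078 above. For the members as a whole the 4 single pairs of libraries gave medians from -0.143 to -0.035, all below 0. The second siControl library stood 0.081 above the first in the members' median and 0.078 below it in genes over 6000 nt, so the 2 control libraries also differed along coding length, by a size like that between the groups. Of the members 9.38% were called lower and 4.34% higher, of genes from 3000 to 6000 nt 8.51% lower and 11.8% higher, and of genes over 6000 nt 13% lower and 12% higher, so the calls did not follow the medians in the longest class. These medians carry no test, and their link with library quality was not tested.

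**Figure D5:**
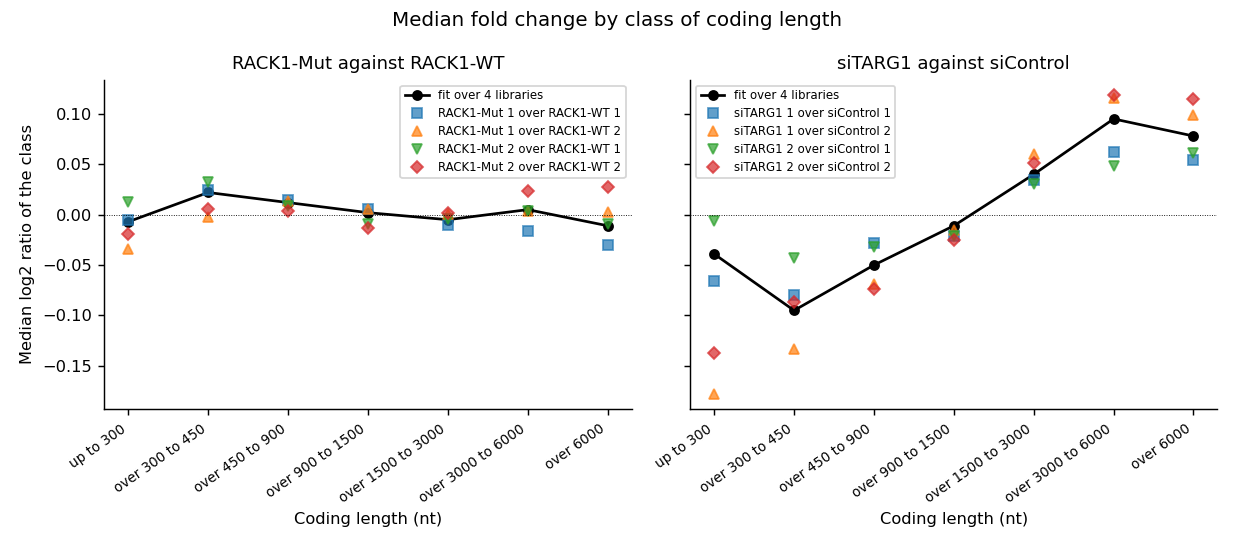
Median log2 ratio (vertical) of regions with at least 80 coding counts in 7 classes of coding length (horizontal, nt), for both comparisons; the black line is the fit over 4 libraries and the symbols the 4 pairs of a treated and a control library. The left panel stays between -0.011 and 0.022 on the black line, and the right one runs from -0.095 at 300 to 450 nt to 0.095 at 3000 to 6000 nt.

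The 3′ UTRs of the called members were searched for the 7-base words of TGAACATA (TGAACAT and GAACATA) and of TGAATATA (TGAATAT and GAATATA), on the mRNA strand of the annotated transcript nearest in coding length. These words were known from earlier results of these data, so the counts describe the members and test nothing, and the sequence of the siRNA is not given in the sources used here. A word of TGAACATA stood in 14 of 54 members that fell (25.9%), in 4 of 25 that rose (16%) and in 57 of 483 with an annotated UTR that were not called (11.8%). Over all regions tested that fell, rose and were not called, the shares were 36.2, 13 and 16.3%. The 14 were UFM1, HMGN1, ABRACL, MTPN, MED21, RIDA, TRIAP1, VMA21, CENPW, SNRPE, TIMM8A, H2AZ2, CDKN2B and TOMM20. A word of TGAATATA stood in 12 of the 25 that rose (48%), in 9 of the 54 that fell (16.7%) and in 77 of the 483 (15.9%). Over all regions tested that rose, fell and were not called, the shares were 45.6, 23.2 and 22.2%. The 12 were UBE2V2, CYCS, INIP, TMEM243, DNAJC24, PFDN4, DYNLL2, S100A14, FAM136A, ARPP19, GNG5 and CNIH1. Among the falls CXCL1 and EIF4EBP1 held no word of TGAACATA, and among the rises S100A6, S100A10, S100A4, IFI27 and B2M held none of TGAATATA. The genes in these 2 lists were named after their values were seen. Median 3′ UTR lengths were 578, 630 and 653 nt in members that fell, rose and were not called. Over all regions tested the lengths were 1323, 1571 and 1074 nt, so the called regions had longer 3′ UTRs there. The part of UTR length in these shares was not tested, and a match of these letters is not a binding site.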

How the data were processed

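Ribosome footprints of 8 OVCAR3 libraries were analysed, 2 per group. Per the file headers, the authors counted reads of 26 to 36 nt with plastid, placing each by its 5′ end with an offset of 14, over gene regions merged from GENCODE release 24 lifted to GRCh37 (hg19). The methods describe the placing of reads from the 3′ end instead, which was not resolved. The submitters' processing notes name Bowtie 1.1.2, TopHat2 2.1.1 and DESeq2. The authors deposited raw counts per region for exons, 5′ UTR, coding sequence and 3′ UTR, used here, and RPKM values, which were not used. Reads that match several places could be counted at each, which bears on near-identical genes. The linker carried molecular identifiers meant for removing duplicates, and the methods say that a script took them off the reads. Whether duplicates were then collapsed in these tables is not stated there.

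Regions were named through the GENCODE release 44 annotation of GRCh37 (19612 of 20165, 97.3%). Coding counts were tested with DESeq2 1.42.0 (Wald test, R 4.3.3) in each experiment, over regions with at least 10 counts in its 4 libraries. Benjamini-Hochberg adjustment ran over the regions kept by DESeq2's default filter. In siTARG1 against siControl, 935 of the 12056 regions had no adjusted p. edgeR 4.0.16 and the other alternatives are in the closing section. The scripts were tested on simulated data. Named members were those called (where over 24 were called, the 10 largest rises, the 10 largest falls and the 4 smallest adjusted p among those with a mean of at least 50 normalized counts and groups that did not overlap); in a comparison with under 10 calls, the 4 highest and 4 lowest under the same limits on counts and overlap; the 10 of highest density; per family list, the called members and the one with the most counts; and 3 on each side of each limit. The members and the 13 lists were chosen with earlier results of these data known. A log2 fold change is treated over control. A few members and 1 sequence that these rules would name are not reported here.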

Additional observations from a re-analysis of the deposited data

How the results depend on the processing

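In RACK1-Mut against RACK1-WT, 2 members were called in the main setting, 1 without a filter on low counts, 1 with a replicate block, 1 with all 8 libraries in 1 fit, 0 with 1 library left out, 0 when a change of at least 1 on the log2 scale was also required and 0 among members up to 300 nt. IFI6 was the one that passed with the block (adjusted p = 0.0122). IFI27 ranged from an adjusted p of 0.000358 (edgeR) to 1 and IFI6 from 8.46e-06 to 1. Without single libraries the members' median ran from 0.003 to 0.033, and up to 300 nt it was -0.007. The coding share difference among members up to 300 nt was 0.000 percentage points. The 5′ UTR share differed by -3.13 percentage points, by -0.15 as a median over members and by 0.06 without the 4 regions of 75 nt, an alternative chosen after seeing the data. The median of members minus that of genes over 3000 nt was 0.013, and by exon length -0.051. In siTARG1 against siControl, 79 calls became 149 by edgeR (all 79 among them), 45 with a replicate block (all among the 79), 23 to 31 with 1 library left out, 34 when a change of at least 1 on the log2 scale was also required and 26 up to 300 nt, where the median was -0.039. Without single libraries the median ran from -0.127 to -0.041. Libraries with the same number were not shown to be paired (correlation of deviations 0.083 and 0.031), so the block is given here alone. No log2 fold change of the called members changed sign in any setting that gave an adjusted p. The same held for the 4 highest and 4 lowest members named under the stated limits in the RACK1 comparison. MTRNR2L1, with about equal coding counts in RACK1-WT and RACK1-Mut, was called lower in RACK1-Mut over exon counts (-0.35). Depth limits members near 80 counts over 8 libraries.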
